A study of Rattus norvegicus with 6 samples.

Results

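The miRNAs described here are rno-miR-146a-5p, rno-miR-181a-5p and rno-miR-181b-5p, which have been linked to immune modulation by vesicles of stromal cells. They were chosen by name from the table of raw tag counts, and they are 3 of its 311 distinct mature sequences. The libraries hold small RNA of extracellular vesicles (exosomes, membrane-bound particles released by cells) of rat BMSCs, which are bone marrow mesenchymal stem or stromal cells. Marrow came from the tibias and femurs of male SD rats aged 4 weeks, and the culture medium held 10% fetal bovine serum, whose own small RNA was not measured. The hypoxia group (3 libraries) was kept at 1% oxygen and the normoxia group (3 libraries) at 21% oxygen, with 5% carbon dioxide in each. No transgene, drug or mutation was named for either group. The labels do not tell whether replicates are separate animals, cultures or repeat preparations, so p-values reflect only the spread between these 6 libraries, which could be technical.

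A miRNA is cut from a hairpin precursor and guides a silencing complex to messages that pair with its seed, the bases from position 2 to position 8. miR-146a is switched on by NF-κB downstream of Toll-like receptors and, in human and mouse cells, lowers the adaptors IRAK1 and TRAF6, so that it forms a negative feedback on inflammatory signalling. miR-181a sets the sensitivity of the T cell receptor in mouse thymocytes, and miR-181b restrains NF-κB signalling in human and mouse endothelium. Both families are also expressed outside the immune system.

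The mature sequences are shown because each member is counted beside a near-identical relative. The seed is in capitals and all are written 5′ to 3′ from RefSeq (GRCr8). The deposited sequences of the miRNAs with counts are identical to them.
miR-146a-5p: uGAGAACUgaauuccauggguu
miR-146b-5p: uGAGAACUgaauuccauaggcugu
miR-181a-5p: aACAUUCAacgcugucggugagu
miR-181b-5p: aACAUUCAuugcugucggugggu
miR-181c-5p: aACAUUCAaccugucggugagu
miR-181d-5p: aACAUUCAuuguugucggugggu
The seed GAGAACU was shared by 2 sequences of the count table, miR-146a-5p and its paralog miR-146b-5p. The seed ACAUUCA was shared by 2, miR-181a-5p and miR-181b-5p, while miR-181c-5p and miR-181d-5p had no count listed in any library. Counted from 1 at the 5′ end, miR-181b-5p differs from miR-181a-5p by A9U, C10U and A21G, so 20 of 23 positions are the same. miR-146b-5p differs from miR-146a-5p by G18A and U21C over 22 positions and is 2 bases longer. All these differences lie outside the seed, so a read miscounted within a pair stays in its seed family. How such reads were handled in counting is not stated in the labels or file headers.

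The hairpins show where the members lie, with the mature arms in capitals. Coordinates are those of RefSeq on GRCr8, while the submitters' processing notes name rn6.
Mir146a, chr10:28349996-28350090, minus strand: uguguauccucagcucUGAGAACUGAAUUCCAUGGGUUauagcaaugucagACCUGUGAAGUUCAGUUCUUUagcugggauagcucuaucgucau
Mir181a2, chr3:43025563-43025679, plus strand: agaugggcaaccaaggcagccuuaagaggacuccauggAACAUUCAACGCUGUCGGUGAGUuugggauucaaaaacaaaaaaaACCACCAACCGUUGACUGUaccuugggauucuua
Mir181b2, chr3:43026666-43026753, plus strand: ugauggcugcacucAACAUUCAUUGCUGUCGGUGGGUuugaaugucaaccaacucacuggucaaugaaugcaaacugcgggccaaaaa
Mir181a2 and Mir181b2 are neighbours, with 986 bases between their hairpins, inside the region of Nr6a1. A second pair on chromosome 13, Mir181a-1 and Mir181b1, lies 61 bases apart. The mature miR-181a-5p is the same from either hairpin, and so is miR-181b-5p. Accordingly, the count table gave each of them 2 rows with identical counts, which cannot be told apart by precursor and were merged to 1.

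Total counts ran from 106954 to 248542 per library, and 1 library, hypoxia replicate 1, stood apart. It listed annotated miRNAs least often, 67 against 102 to 155 in the others, and it correlated with the rest at 0.755 on average, where the other libraries had means of 0.807 to 0.855. All 15 mesenchymal stromal marker miRNAs on the list had a count in at least 1 library. Together they held 35.2 to 49.8% of the counts of a library, much of it from miR-21-5p, which is also on the inflammatory list below. That miRNA alone had 24246 of the 118683 counts of hypoxia replicate 1 and 78530 of the 227149 counts of normoxia replicate 3. Others were scarce, such as miR-222-3p (named after its values were seen), with 6 and 15 counts in hypoxia replicates 2 and 3 and none listed elsewhere. Of 10 blood cell markers 5 had a count, and these held at most 0.126% in any library. Over the libraries miR-486 had 0 to 103 counts, miR-223-5p 0 to 60, miR-144-5p 0 to 24, miR-451-5p 0 to 24 and miR-150-5p 0 to 4. The other 5 had no count listed in any library.

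miR-146a-5p was the most abundant of the 3 members and was found in all 6 libraries. It had 71, 217 and 248 counts in hypoxia replicates 1 to 3 and 48, 308 and 236 counts in normoxia replicates 1 to 3. Expressed as CPM, counts scaled to a common library size with TMM factors, these were levels of 480, 1604 and 1000 under hypoxia and 465, 1508 and 1148 under normoxia. The groups overlapped almost completely, and replicate 1 was the lowest library in each. The replicate 1 libraries also had the smallest total counts of their groups, 118683 and 106954, and the part of this in the low values was not tested.

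In terms of share, miR-146a-5p took 0.0598% of the counts of hypoxia replicate 1 (95% exact binomial interval 0.0467 to 0.0755%). In hypoxia replicate 2 it took 0.149% (0.13 to 0.17%), so the intervals of these libraries of a group did not overlap. Each binomial interval given here covers counting error alone and treats reads as independent. PCR copies of a molecule are not independent, so these intervals may be too narrow. By mean level it ranked 37th of 197 annotated miRNAs, between miR-30a-5p (1160 CPM) and miR-218a-5p (1010 CPM), with miR-199a-5p (1180 CPM) and let-7d-3p (998 CPM) next to these.

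miR-181a-5p, the second by mean level, was listed in 5 of 6 libraries. It had 56, 36 and 42 counts in hypoxia replicates 1 to 3, and 40, 0 and 40 counts in normoxia replicates 1 to 3. The corresponding levels were 379, 266 and 169 CPM under hypoxia and 388, 0 and 194 CPM under normoxia. Apart from normoxia replicate 2 the groups overlapped, with replicate 1 the highest library in each.

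The blank cell in normoxia replicate 2 was taken as 0. The lowest share of miR-181a-5p in the other 5 libraries was 0.0169%, which would give 34.7 counts at the depth of normoxia replicate 2, and the lowest count listed in that library was 7. Of the 61 sequences with a count in the other 5 libraries, 5 had none there, miR-181a-5p and, among others, miR-672-5p, miR-543-3p and miR-28-5p (miR-543-3p is named after its values were seen). In hypoxia replicate 1 the corresponding number was 25 of 81, and in the other 4 libraries it was 0 or 1.

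miR-181b-5p was the scarcest member, though it had a count in every library. Its counts were 9, 22 and 5 in hypoxia replicates 1 to 3 and 14, 60 and 25 in normoxia replicates 1 to 3. As levels these were 60.9, 163 and 20.2 CPM under hypoxia and 136, 294 and 122 CPM under normoxia. Hypoxia replicates 1 and 3 lay below every normoxia library, and hypoxia replicate 2 lay within the normoxia range.

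The order of the members was the same in most libraries. miR-146a-5p had more counts than miR-181a-5p and than miR-181b-5p in 6 of 6 libraries, by factors of 1.2 to 6.03 over miR-181a-5p where that was listed and of 3.43 to 49.6 over miR-181b-5p. miR-181a-5p exceeded miR-181b-5p in 5 of 6, the exception being normoxia replicate 2. In level, the lowest library of miR-146a-5p (465 CPM) lay above the highest of miR-181a-5p (388 CPM), whereas the ranges of miR-181a-5p and miR-181b-5p overlapped. All mature forms are of similar length, and adaptor ligation can favour some sequences, so levels of different miRNAs compare only roughly.

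By mean level miR-181a-5p ranked 75th, between miR-450b-5p (237 CPM) and miR-340-5p (231 CPM), with miR-455-3p (253 CPM) and miR-16-5p (228 CPM) beyond them. miR-181b-5p ranked 88th, between miR-322-3p (133 CPM) and miR-23b-3p (128 CPM), with miR-186-5p (139 CPM) and the low-oxygen miRNA miR-210-3p (124 CPM) beyond them. The counts of miR-210-3p were 0, 21 and 44 in hypoxia replicates 1 to 3 and 0, 0 and 85 in normoxia replicates 1 to 3, so its groups overlapped. The fit described below gave miR-210-3p a log2 fold change (hypoxia relative to normoxia) of -0.32 (SE 2.34). The 3 members together held 0.0954 to 0.188% of the counts of a library, 102 to 368 counts in all.

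**Figure D1:**
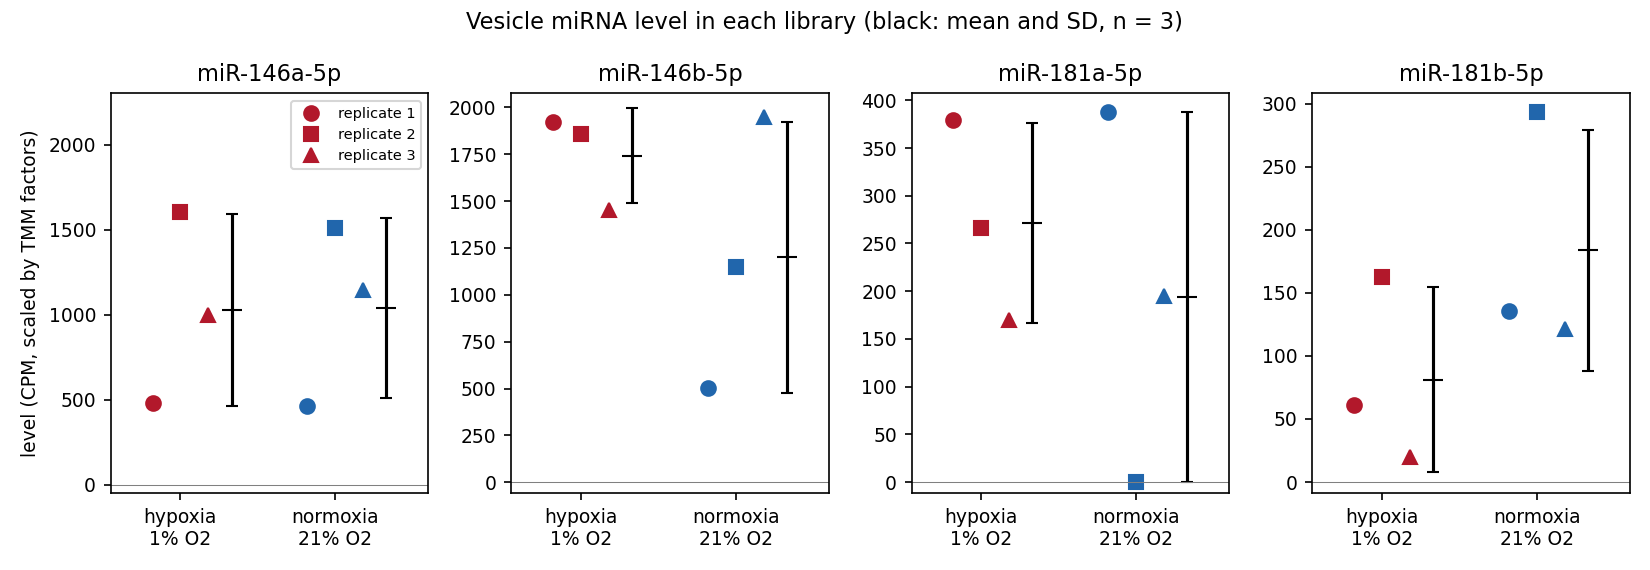
Level of each miRNA in every library, in TMM-scaled CPM on a separate linear axis per miRNA, with hypoxia in red and normoxia in blue. Symbols mark the replicate number and black bars the group mean with SD (n = 3). The groups overlap for all 4 miRNAs, replicate 1 is the lowest library of both groups for miR-146a-5p, and miR-181a-5p is at 0 in normoxia replicate 2.

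The comparison asked whether vesicles of cells held at 1% oxygen carried other amounts of these miRNAs than those of cells at 21% oxygen. In edgeR's quasi-likelihood test, with Benjamini-Hochberg adjustment over all 107 tested sequences and a threshold of 0.05, 0 of the 3 members were called. In that test 0.0% of the sequences were called higher and 0.0% lower, so the 0 of 3 is what the background gives. At an unadjusted p under 0.05 edgeR had 1 sequence (0.935%), DESeq2 1 and limma-voom 4, none of them a member. For 0 of 3 members did the hypoxia and normoxia ranges not overlap, beside 7.48% of all tested sequences.

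The mean level of miR-146a-5p was 1028 ± 563 CPM in the hypoxia group and 1040 ± 530 CPM in the normoxia group (n = 3 each, SD). The fit put the log2 fold change (hypoxia relative to normoxia) at -0.02 (SE 0.73), with an adjusted p of 0.998 in edgeR. The 95% interval ran from -1.60 to 1.56, that is from 0.33-fold to 2.95-fold, so a change of either sign within these bounds remained compatible with the data. The fold change was 0.57 (SE 0.61) without hypoxia replicate 1 and -0.36 (SE 1.02) without hypoxia replicate 2. Without both libraries numbered 1, which held its lowest values, it was -0.0052 (SE 0.49), an alternative chosen after seeing the data.

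For miR-181a-5p the mean level was 272 ± 105 CPM in the hypoxia group and 194 ± 194 CPM in the normoxia group (n = 3 each, SD), with the unlisted value entered as 0. The log2 fold change was 0.49 (SE 1.76; 95% interval -3.30 to 4.28), and the adjusted p in edgeR was 0.998. Leaving out normoxia replicate 2, where it was unlisted, gave -0.026 (SE 1.85), and leaving out normoxia replicate 1 gave 1.58 (SE 2.89). Its value was 2.13 (SE 2.06) in limma-voom. The sign above 0 thus rested on 1 library.

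miR-181b-5p had a mean level of 81.2 ± 73.4 CPM in the hypoxia group and 184 ± 95.6 CPM in the normoxia group (n = 3 each, SD). The log2 fold change was -1.18 (SE 1.79; 95% interval -5.04 to 2.68), with an adjusted p of 0.998 in edgeR. It was below 0 in each of the 18 alternative fits that gave a value. These fits reuse the same libraries or part of them, so their shared sign is not independent evidence. Without hypoxia replicate 2 the log2 fold change was -2.05 (SE 3.22) and without hypoxia replicate 3 -0.55 (SE 2.31). Without hypoxia replicate 1 it was -0.73 (SE 1.58) and without normoxia replicate 2 -0.61 (SE 2.41).

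**Figure D2:**
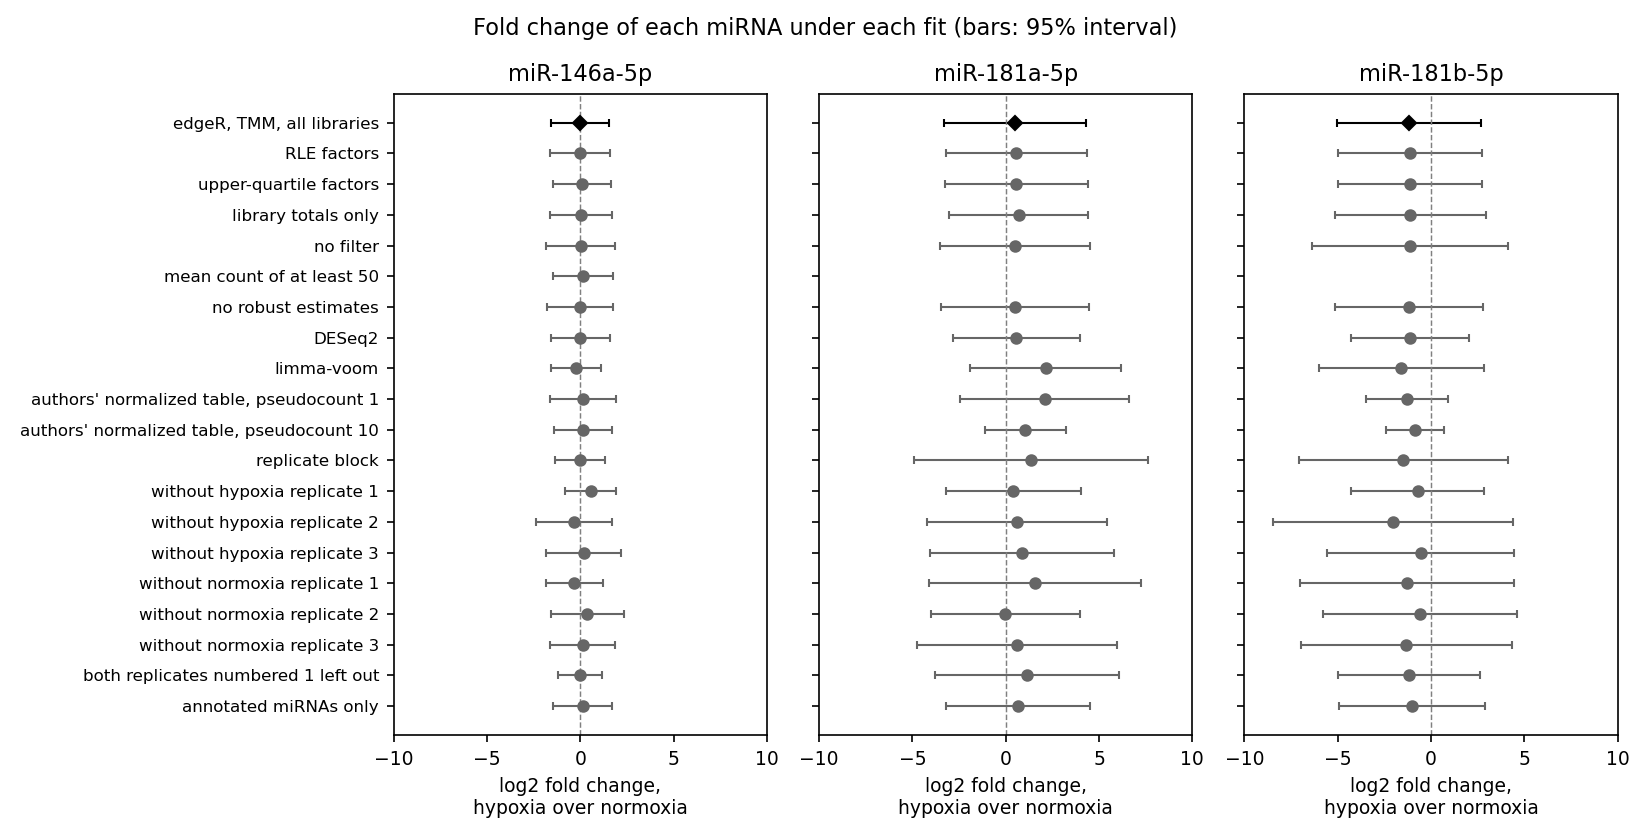
Fitted log2 fold change (horizontal axis, hypoxia over normoxia) of each member under each fit, with 95% intervals; the top line is the fit of all libraries with TMM factors. All intervals include 0. The points of miR-146a-5p lie on both sides of 0, those of miR-181b-5p below it, and miR-181a-5p and miR-181b-5p have no value at a mean count of at least 50.

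The errors of the members followed their abundance. For miR-146a-5p, 33.6% of the 107 tested sequences had a smaller standard error, for miR-181a-5p 65.4% and for miR-181b-5p 71.0%, around a median of 1.44 over all sequences. The biological coefficient of variation fitted for miR-146a-5p was 0.889, where the trend at its abundance was 1.03. For miR-181a-5p it was 1.33 on a trend of 1.33, and for miR-181b-5p 1.17 on a trend of 1.39.

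**Figure D3:**
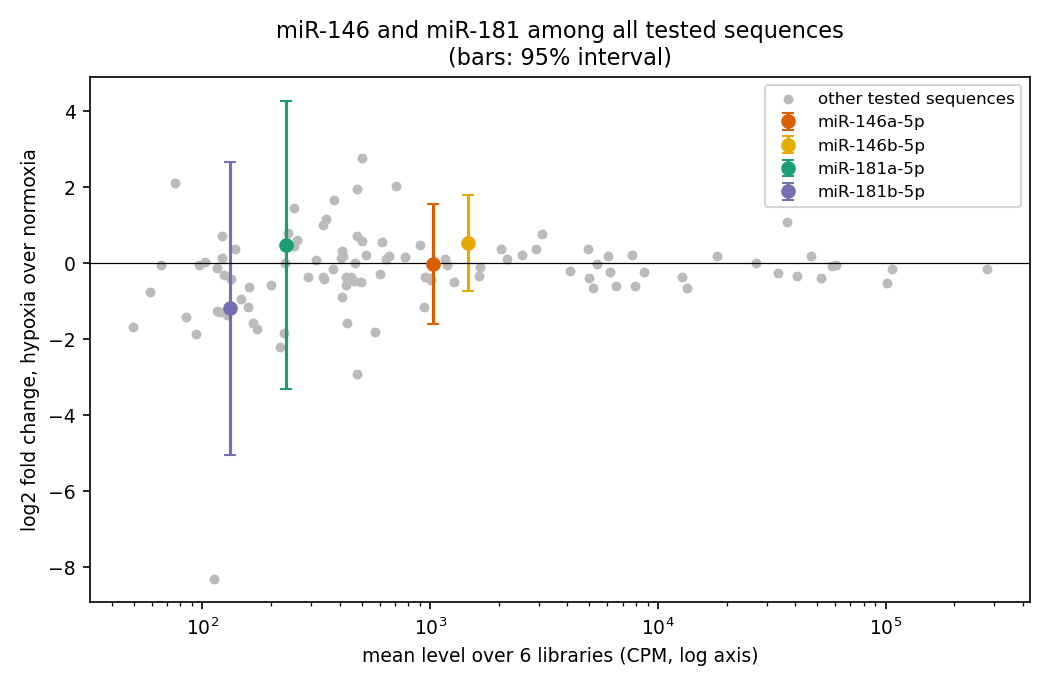
Log2 fold change (hypoxia over normoxia) against mean level in CPM (log axis) for all 107 tested sequences, with miR-146a-5p, its paralog miR-146b-5p, miR-181a-5p and miR-181b-5p in colour and their 95% intervals. The coloured points lie among the grey ones, and the intervals are wider for the 2 scarcer miR-181 members.

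Ratios within a library need no scaling between libraries, and so they compare members directly. miR-181b-5p made up 13.8%, 37.9% and 10.6% of the miR-181a-5p and miR-181b-5p counts in hypoxia replicates 1 to 3. In normoxia replicates 1 to 3 its share was 25.9%, 100% and 38.5%. The pair had only 47 to 65 counts per library, so the exact binomial intervals were wide, at 6.53 to 24.7% in hypoxia replicate 1 and 26.7 to 51.4% in normoxia replicate 3. The groups overlapped, and normoxia replicate 2 stood far above the rest.

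The mean share was 20.8 ± 14.9% in hypoxia libraries and 54.8 ± 39.6% in normoxia libraries (n = 3 each, SD). A two-sided exact permutation test gave p = 0.2 (adjusted p = 0.667 over 5 measures, not all of them planned), where 3 against 3 libraries cannot go below 0.1. Without normoxia replicate 2 the difference, hypoxia minus normoxia, shrank from -34.0 to -11.4 percentage points (exact permutation p = 0.4).

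Summed over miR-181a-5p and miR-181b-5p, a measure that was not planned, normoxia replicate 2 was not unusual. The sum was 0.0548, 0.0397 and 0.0189% of counts in hypoxia replicates 1 to 3 and 0.0505, 0.0292 and 0.0286% in normoxia replicates 1 to 3. In normoxia replicate 2 all 60 counts of the pair were thus assigned to miR-181b-5p, while the total lay inside the range of the other libraries. Whether reads were divided differently there was not tested. The group means of the sum were 0.0378 ± 0.018% and 0.0361 ± 0.0125% for hypoxia and normoxia (SD, n = 3 each; exact permutation p = 0.9, adjusted p = 0.9). With the pair as 1 row, a fit that was also not planned, the log2 fold change of the pair in edgeR was -0.068 (SE 1.28; adjusted p = 0.996). That sign was above 0 without hypoxia replicate 3 (0.22) or normoxia replicate 1 (0.28).

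**Figure D4:**
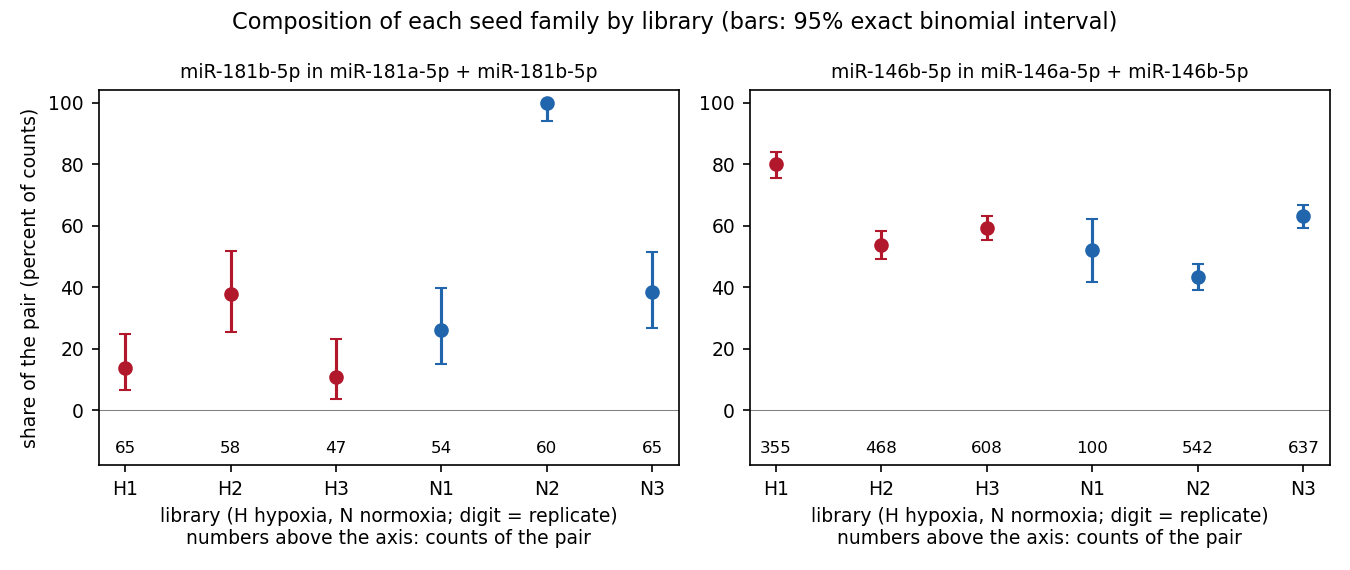
Share of miR-181b-5p in the counts of miR-181a-5p plus miR-181b-5p (left) and of miR-146b-5p in those of miR-146a-5p plus miR-146b-5p (right), in percent per library, with 95% exact binomial intervals; hypoxia is red and normoxia blue, and the numbers above the axis are counts of the pair. On the left normoxia replicate 2 is at 100% and the others lie between 10.6 and 38.5%; on the right hypoxia replicate 1 is at 80.0% and the others lie between 43.2 and 63.0%.

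The paralog miR-146b-5p, which shares its seed and also acts on inflammatory signalling, had more counts than miR-146a-5p in 5 of 6 libraries. It had 284, 251 and 360 counts in hypoxia replicates 1 to 3 and 52, 234 and 401 counts in normoxia replicates 1 to 3. The levels were 1743 ± 255 CPM in the hypoxia group and 1200 ± 725 CPM in the normoxia group (n = 3 each, SD), and the groups overlapped. Its log2 fold change was 0.54 (SE 0.59; 95% interval -0.73 to 1.81), with an adjusted p of 0.998 in edgeR.

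Within the miR-146 family, the share of miR-146b-5p was not a planned measure. miR-146b-5p held 80.0%, 53.6% and 59.2% of the family's counts in hypoxia replicates 1 to 3. In normoxia replicates 1 to 3 it held 52.0%, 43.2% and 63.0%. The exception was normoxia replicate 2, where miR-146a-5p had the larger part. In hypoxia replicate 1 the interval of 75.5 to 84.0% lay above those of the other 5 libraries. The means of 64.3 ± 13.9% in hypoxia libraries and 52.7 ± 9.91% in normoxia libraries (n = 3 each, SD) gave an exact permutation p of 0.4 (adjusted p = 0.667). The difference, 11.6 percentage points, was 3.71 without hypoxia replicate 1 and 6.81 without normoxia replicate 2.

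Together, miR-146a-5p and miR-146b-5p made up 0.299, 0.321 and 0.245% of counts in hypoxia replicates 1 to 3 and 0.0935, 0.264 and 0.28% in normoxia replicates 1 to 3. Normoxia replicate 1 was the low one, and the other 5 libraries lay close together. In a fit of the summed family, which like the sum was not planned, the log2 fold change was 0.35 (SE 0.52; 95% interval -0.80 to 1.49; adjusted p = 0.996 in edgeR). Without normoxia replicate 1 it was -0.001 (SE 0.57).

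The ratio of miR-181a-5p to miR-146a-5p compares the 2 families. On the log2 scale with a pseudocount of 1, it was -0.34, -2.56 and -2.53 in hypoxia replicates 1 to 3 and -0.26, -8.27 and -2.53 in normoxia replicates 1 to 3. Both replicates numbered 1 were near 0, hypoxia replicates 2 and 3 and normoxia replicate 3 lay close together, and normoxia replicate 2 stood apart because miR-181a-5p was unlisted. The difference of means was 1.88 (exact permutation p = 0.9, adjusted p = 0.9), and it was -0.42 without normoxia replicate 2.

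Of 11 paralogs and other arms on the list, 3 had a count and 1, miR-146b-5p, was tested. The other arm of the miR-146a hairpin, miR-146a-3p, had 10 counts in hypoxia replicate 2 and none listed elsewhere. From Mir181a-1, the arm miR-181a-1-3p had 11 and 19 counts in hypoxia replicates 2 and 3 and none listed in hypoxia replicate 1 or in the normoxia libraries. Both fell below the filter on low counts, so no test was made, and since no count of 1 occurs, low values may have been left out of the table. These arms are shown because they mark single hairpins, with their seeds in capitals.
miR-146a-3p: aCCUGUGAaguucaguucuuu
miR-181a-1-3p: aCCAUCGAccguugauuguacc
In hypoxia replicate 2 the ratio of the arms can be read from 217 counts of miR-146a-5p beside 10 of miR-146a-3p. The remaining 8 names on the list had no count listed in any library.

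Other miRNAs known for a part in inflammatory signalling showed no change that passed the test. Of 18 on the list, 15 had a count and 11 were tested, and 0 were called higher and 0 lower. Their fitted values were above 0 for 3 and below 0 for 8, with a median of -0.19 beside -0.14 over all 107 sequences. Without hypoxia replicate 1 these medians were -0.018 and 0.15. The most abundant were miR-21-5p, at 263500 ± 92220 CPM in hypoxia libraries and 293500 ± 88530 CPM in normoxia libraries, and let-7i-5p, a regulator of Toll-like receptor 4 in human cells, at 83310 ± 27600 CPM and 118300 ± 18420 CPM (SD, n = 3 each). The latter also had the smallest unadjusted p of the list, at -0.51 (SE 0.33) on the log2 scale. miR-155-5p, which promotes inflammatory responses in macrophages, was scarce, with 3 counts in hypoxia replicate 2 and 21 in normoxia replicate 1. It is named here after its values were seen.

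The blood cell list had 2 tested members, both with a value below 0 and neither called, and their median was -0.81, or -0.041 without hypoxia replicate 1. For its most abundant member, miR-486, the fit gave -0.87 (SE 1.72), and for the erythroid miR-144-5p -0.75 (SE 2.41). The list held 0 to 0.0825% of counts under hypoxia and 0.0253 to 0.126% under normoxia and was at 0 in hypoxia replicate 1, the library with the fewest annotated miRNAs. Its part in the levels of the members was not tested. Of the mesenchymal list, 14 of 15 were tested and 0 called, with 5 values above 0 and 9 below. The median of these values was -0.17, or 0.15 when hypoxia replicate 1 was left out. After miR-21-5p the list was led by miR-26a-5p, at -0.39 (SE 0.35), and miR-24-3p had its smallest unadjusted p, at -0.59 (SE 0.40).

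Likeness of pattern was measured as the root mean square difference between log2 CPM profiles over the 6 libraries, each centred on its own mean. Nearest to miR-146a-5p among 99 other tested annotated miRNAs were let-7g-5p (0.364), let-7f-5p (0.387) and miR-27a-3p (0.461), where the median was 1.25. miR-181b-5p was nearest to let-7d-3p (0.535), miR-27a-3p (0.715) and miR-221-3p (0.731), with a median of 1.54. For miR-181a-5p the nearest were miR-28-5p (0.592), miR-672-5p (0.664) and miR-423-5p (1.05), with a median of 2.09. The first 2 of these were also unlisted in normoxia replicate 2.

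The members did not resemble each other to the same degree. miR-181a-5p and miR-181b-5p, made from neighbouring hairpins, differed by 2.45, more than the median distance of either from other miRNAs. miR-146a-5p was closer to miR-181b-5p (1.02) than to miR-181a-5p (2.25). These distances are a description over 6 libraries, and the values of miR-181a-5p rest largely on its unlisted value.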

How the data were processed

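Small RNA of vesicles was sequenced in 6 libraries, 3 per group. The authors deposited raw tag counts per mature miRNA and precursor, per the file headers, and a table of normalized tag counts whose method is not stated and which was treated as a score. The submitters' processing notes list Novoalign 3.02.12, cutadapt 1.9.3 and the build rn6 without a role. The counting program and miRNA release were not stated there. Blank cells were taken as 0.

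The 353 rows were merged to 311 distinct sequences, and rows repeated over precursors carried the same counts. The test was that of edgeR 4.0.16 under R 4.3.3 (filterByExpr with minimum count 10 and minimum total 15, TMM factors from 0.905 to 1.25, robust glmQLFit, glmQLFTest, Benjamini-Hochberg adjustment over 107 sequences, threshold 0.05). Standard errors were derived from the test statistic. Total counts of 106954 to 248542 limit precision for scarce miRNAs, beside the variation between libraries. For shares, two-sided exact permutation tests were run with scipy 1.17.1. The share of miR-146b-5p, the summed percentages of each family and the fits of summed families were not planned in advance. Alternatives used DESeq2 1.42.0, limma 3.58.1, other scalings and filters, and left-out libraries.

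Members and lists were chosen with earlier results of these data known. The miRNAs named are the members, their paralogs and other arms with a count, the 2 most abundant and the smallest-p tested member of each list, the 3 nearest profiles and the 4 neighbours in level of each member. Exceptions are said to be named after their values were seen, and the other blood cell markers serve as marker values.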

Additional observations from a re-analysis of the deposited data

How the results depend on the processing

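No member passed the adjusted threshold under any alternative, where adjusted p-values of the 3 ran from 0.89 to 1.0. The number of called sequences was 0 with all libraries and in every alternative but 1. With limma on the deposited normalized table at pseudocount 1 it was 1, an unannotated sequence with no listed count under hypoxia. For miR-146a-5p, whose log2 fold change of -0.02 lies close to 0, the sign was positive with RLE factors (0.0037), upper-quartile factors (0.082), library totals only (0.045), DESeq2 (0.002), no filter (0.0088), the stricter filter of 50 mean counts (0.134), limma on the deposited normalized table (0.148 at pseudocount 1, 0.14 at 10), and annotated miRNAs only (0.117), the last chosen after seeing the data. Leaving out 1 library each gave -0.36 to 0.57 for miR-146a-5p, -0.026 to 1.58 for miR-181a-5p and -2.05 to -0.55 for miR-181b-5p. Only without normoxia replicate 2 was miR-181a-5p below 0. The share of miR-181b-5p differed by -48.4 to -11.4 percentage points with 1 library left out, the log2 ratio of miR-181a-5p to miR-146a-5p by -0.416 to 3.59, and the summed share of miR-181a-5p and miR-181b-5p by -0.00678 to 0.0112, with -0.00175 without normoxia replicate 2 and -0.00204 without normoxia replicate 3. The causes were not tested. At a mean count of at least 50, miR-181a-5p and miR-181b-5p had no value.

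Same-numbered libraries correlated in their deviations from the group means at 0.228, 0.0313 and 0.124, and not every library correlated best with its own number, so the numbers were not taken as pairs. With the replicate number as a block, edgeR called 0 sequences, and the log2 fold changes were -0.021 for miR-146a-5p, 1.37 for miR-181a-5p and -1.50 for miR-181b-5p. For miR-181a-5p and miR-181b-5p, counts were at most 60 per library and the fitted biological coefficients of variation were 1.33 and 1.17. Both bear on what could be detected for them, and the part of each was not tested.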
